A study of Mus musculus with 6 samples.

Results

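Transcripts of 10 genes for subunits of AP-1 or close relatives of it were compared between untreated mouse tumours and mouse tumours taken 4 h after doxycycline. The genes were taken by symbol from a table of read counts: the FOS family (Fos, Fosb, Fosl1 and Fosl2), the JUN family (Jun, Junb and Jund), the BATF proteins (Batf and Batf3) and the small MAF protein Maff. All 10 of the 10 were among the 21671 named genes of the table, and all 10 were among the 14809 genes that passed the filter on low counts. The tumours grew under the skin of CD1 nude ho mice, hosts without thymus-derived T cells, from transformed hepatoblasts, the fetal liver cells that give rise to hepatocytes and biliary cells. The injected cells carried TtRMPVIR shST18, in which doxycycline induces a hairpin RNA directed against ST18, a zinc finger transcription factor. RNA was read from 3 untreated libraries, labelled wild type for genotype although the treatment protocol gives the vector for the injected cells. Another 3 libraries, with the genotype label ST18 knockdown, came from mice killed 4 h after a first gavage of doxycycline at 200 mg/ml in 300 µl of water. The drug, the gavage and the hairpin differ together between the groups, so their parts cannot be told apart. The labels speak of triplicates without saying that each library is a separate animal, and p-values therefore measure the spread between these libraries.

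AP-1 is a dimer of basic leucine zipper (bZIP) proteins that binds a short palindromic DNA site. JUN proteins pair with each other or with FOS proteins, while FOS proteins need a JUN partner. Mitogens, cytokines and stress switch many of these genes on within minutes through MAP kinases and factors already sitting on their promoters, and the transcripts of several of them decay fast. BATF proteins pair with JUN and are best known from lymphocytes and dendritic cells, and small MAF proteins such as MAFF have no activation domain of their own. In liver, c-JUN and the FOS proteins are known for their parts in regeneration and tumour growth.

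The libraries held 12090309 to 16169043 counts on named genes. Of the genes tested with edgeR, 421 (2.84%) were higher and 323 (2.18%) lower after doxycycline at a Benjamini-Hochberg adjusted p below 0.05. This split of 56.6% higher became 45.2% once GC content and exon length were fitted as offsets. St18 itself was at 0.907, 1.44 and 1.28 CPM (counts scaled to a common library size) in the untreated libraries and at 2.85, 0.824 and 3.82 CPM in the doxycycline libraries, a log2 fold change of 1.03 (SE 0.55, edgeR adjusted p = 0.298). The targeted gene was thus not lower in the group labelled as its knockdown, which is named here by its treatment. Markers of other cells moved between the groups as well. Of the 14 skeletal muscle genes tested, 10 were higher and 0 lower. The summed level of the skeletal muscle list was 69.7, 202.3 and 86.4 CPM untreated. After doxycycline it was 1347, 2690 and 390.3 CPM in replicates 1, 2 and 3, the highest in replicate 2. Summed neutrophil markers were at 155 to 230 CPM and 58.3 to 116 CPM, with 1 of 9 called lower. Macrophage markers summed to 468 to 572 CPM and 593 to 852 CPM, with 3 of 14 called higher. Fibroblast and mural markers summed to 1341 to 1390 CPM and 1763 to 2030 CPM, with 4 of 14 called higher. Endothelial markers summed to 315 to 362 CPM and 407 to 492 CPM, with 2 of 11 called higher. Dendritic cell and MHC class II markers summed to 453 to 493 CPM and 449 to 493 CPM, and T, NK and B cell markers to 11.2 to 12.6 CPM and 13.0 to 14.8 CPM, with none of either list called in either direction. In bulk tissue, fewer cells of a type and less RNA per cell cannot be told apart. No marker list held a gene at 0 in every library. The mature liver markers Alb and Ttr had 5 and 1 counts over the 3 untreated libraries and Hnf4a had 20, while Krt8, Krt18 and Sox9 were at 43.5, 67.2 and 31.2 CPM.

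Untreated replicate 2 and doxycycline replicate 1 stood apart by transcripts of the skin. The sum of 12 epidermal and hair follicle genes, chosen after the values were seen, was 256.9 and 288.6 CPM in these libraries and 9.68 to 15.8 CPM in the other 4. Krt5, a keratin of basal epidermal cells, was at 25.8 and 25.0 CPM against at most 0.188 CPM elsewhere. The results below are given for all libraries. Without these 2 libraries edgeR called none of 14905 genes, with 1316 lower and 1294 higher at an unadjusted p below 0.05, so every call below was lost in that fit, which has 2 libraries per group. Leaving out any 1 untreated library also lost most calls, with 11 to 27 genes called higher and 12 to 25 lower. With all libraries 421 were higher and 323 lower.

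Promoters of 5 members are shown first, with some short elements marked. Fosl2 and Junb passed the threshold below, and Fos, Fosb and Jun did not. The site of the serum response factor, an activator of immediate early genes, was not among the motifs searched. RefSeq (build GRCm38.p6) gave 11 start sites for 9 of the 10 genes. The 150 bases before the start of 5 genes follow, 5′ to 3′ on the strand of the gene, with these motifs in capitals where a search of both strands found them: TGACG, the half-site of the cAMP response element, TGACATCA, the octamer known from the Jun promoter, TATAAA, the TATA box, CCAAT, and GGGCGG, the GC box, which reads CCGCCC on the other strand.
Fosl2, chr5:32136322-32136471, plus strand: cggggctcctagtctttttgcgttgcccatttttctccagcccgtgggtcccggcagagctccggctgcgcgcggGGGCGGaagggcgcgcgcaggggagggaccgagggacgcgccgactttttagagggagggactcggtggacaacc
Fos, chr12:85473740-85473889, plus strand: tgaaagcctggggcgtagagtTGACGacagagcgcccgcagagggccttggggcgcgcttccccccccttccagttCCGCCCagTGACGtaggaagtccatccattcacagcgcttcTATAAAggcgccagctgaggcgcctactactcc
Fosb, chr7:19310046-19310195, minus strand: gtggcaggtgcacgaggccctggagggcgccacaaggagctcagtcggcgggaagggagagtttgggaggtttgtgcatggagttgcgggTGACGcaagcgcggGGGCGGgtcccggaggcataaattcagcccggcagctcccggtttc
Jun, chr4:95052223-95052372, minus strand: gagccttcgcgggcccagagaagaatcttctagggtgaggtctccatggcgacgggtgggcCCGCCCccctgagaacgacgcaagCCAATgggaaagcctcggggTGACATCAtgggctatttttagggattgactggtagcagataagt
Junb, chr8:84978749-84978898, minus strand: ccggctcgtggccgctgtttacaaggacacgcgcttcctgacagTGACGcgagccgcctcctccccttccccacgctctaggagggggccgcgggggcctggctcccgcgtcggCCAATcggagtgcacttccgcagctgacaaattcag

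In the 250 bases before each start, the GC box was in 8 of the 11 member promoters and in 32.7% of all 32851 promoters of the same length. The TGACG half-site was in 6 of 11 and in 17.8% of all. Fos had 2 copies, at 129 and 66 bases before the start, and was the 1 member with TATAAA, at 33 to 28 bases before the start, a motif of 12.4% of all promoters. The octamer TGACATCA stood 45 bases before the start of Jun and 45 bases before 1 start of Maff, and was in 2.93% of all promoters. The full cAMP response element TGACGTCA, which holds the half-site on both strands, was in another Maff promoter and in 1.55% of all. CCAAT was in the promoters of Jun and Junb and in 33.8% of all. The AP-1 site TGANTCA was in none of the 11 and in 6.75% of all, which says only that these letters are not in these windows. Fosl2, the member with the smallest adjusted p below, had a single GC box and none of the other motifs.

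Levels of different genes were compared as CPM per kb of exons. In the untreated tumours Junb was the most abundant member at 53.0 ± 4.68 CPM per kb (SD, n = 3), followed by Jund at 32.6 ± 5.05, Jun at 28.0 ± 5.23, Maff at 23.8 ± 4.00, Fos at 22.2 ± 6.48 and Fosl2 at 18.6 ± 0.638. Fosl1 was lower at 8.99 ± 0.810 CPM per kb, and Batf3 at 4.46 ± 0.501, Batf at 3.18 ± 0.433 and Fosb at 2.77 ± 1.01 were the lowest. Junb lay above Jund, Fosl2 above Fosl1, Fosl1 above Batf3 and Batf3 above Batf in every pair of untreated libraries. The neighbours from Jund to Fosl2, and Batf and Fosb, overlapped. Several places rest on the gene models. The 2878 bases of the RefSeq span of Jund in place of 1668 bases of exons put it at 18.9 ± 2.93 CPM per kb, under Jun. With the longest coding transcript as the length, Batf3 was at 8.89 ± 0.999 CPM per kb and overlapped Fosl1 at 9.81 ± 0.883, Fosl2 at 27.5 ± 0.944 passed Fos at 24.8 ± 7.23, and Junb was again highest at 67.4 ± 5.96. After doxycycline Junb was again highest at 37.2 ± 0.970 CPM per kb and again above Jund, at 22.8 ± 5.72, without overlap. Maff at 17.8 ± 1.78, Jun at 16.1 ± 5.12, Fos at 11.0 ± 8.07 and Fosl2 at 10.4 ± 0.780 came next. The last were Batf at 5.06 ± 2.03, Fosl1 at 4.04 ± 1.95, Batf3 at 3.63 ± 1.37 and Fosb at 3.52 ± 3.99. Beyond Junb and Jund, neighbours were separated in that group only between Fosl2 and Batf.

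**Figure D1:**
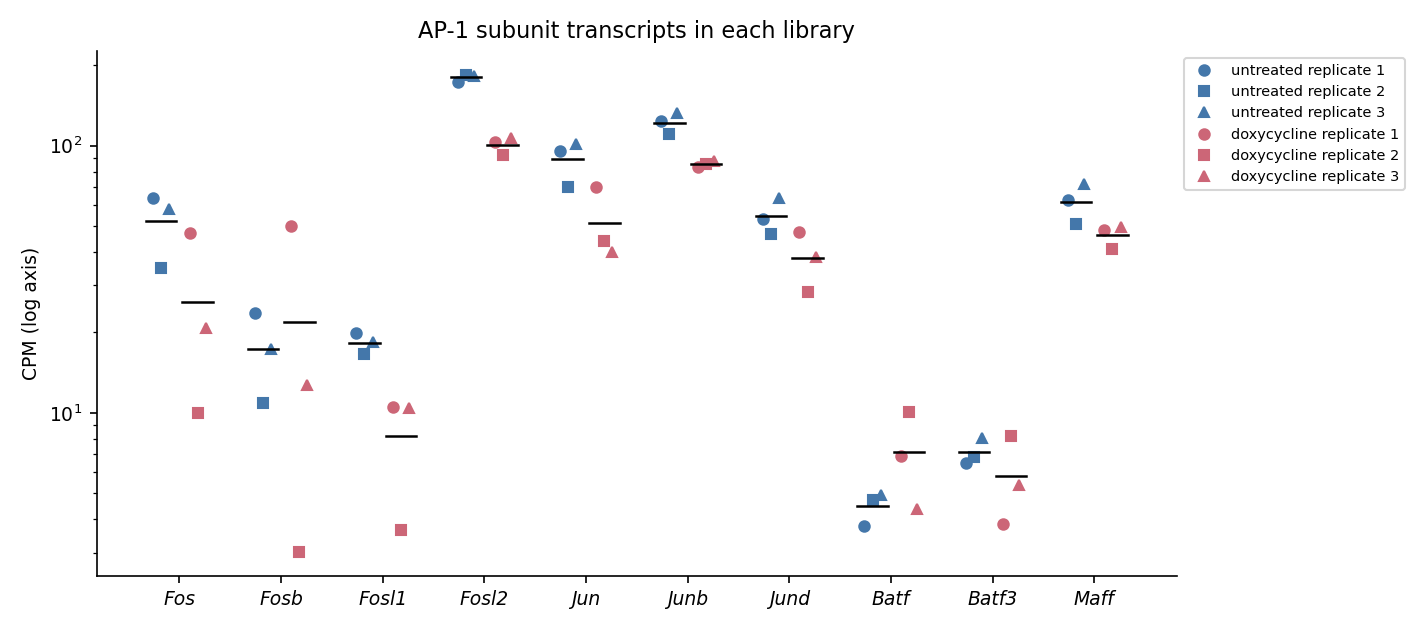
CPM of the 10 members on a log axis, 1 symbol per library (blue untreated, red doxycycline, the symbol shape giving the replicate number) and a bar at each group mean. Fosl2 forms tight groups that do not overlap, at 172.9 to 184.4 and 92.4 to 106.8 CPM, whereas Fosb spreads from 3.02 to 50.2 CPM in the doxycycline group alone.

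In the FOS family, Fosl2 fell, and it was the member whose call held most often. FOSL2, also named FRA-2, lacks the strong activation domain of FOS and is made later and for longer after a stimulus. Fosl2 was at 172.9, 184.4 and 182.4 CPM in the untreated libraries and at 103.5, 92.4 and 106.8 CPM in the doxycycline libraries. Every doxycycline library lay below every untreated one, and both groups were tight. The mean was 1.78-fold lower, from 179.9 ± 6.17 to 100.9 ± 7.55 CPM (SD, n = 3), with a log2 fold change of -0.83 (SE 0.08, 95% interval -1.02 to -0.65, edgeR adjusted p = 0.00507). The call held in 17 of 18 alternative fits, with log2 fold changes from -0.88 to -0.78. The exception left out both libraries with skin transcripts, where the change was -0.85 (adjusted p = 0.0718) in the fit that called no gene.

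Fosl1 did not pass the threshold. It encodes FRA-1, a FOS protein known from invasive tumour cells that likewise lacks a strong activation domain. Fosl1 was at 19.9, 16.6 and 18.4 CPM untreated and at 10.6, 3.64 and 10.5 CPM after doxycycline, so that the groups did not overlap. Doxycycline replicate 2 was the lowest by a wide margin. On the log2 scale the change was -1.15, with an SE of 0.37 and a 95% interval from -2.002 to -0.31 (edgeR adjusted p = 0.111). Without doxycycline replicate 2 the change was smaller, -0.80, but was called (adjusted p = 0.0253), and without the libraries with skin transcripts it was -1.46 (adjusted p = 0.223).

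Fos, the founding immediate early gene of the family, had groups that overlapped. It was at 63.7, 34.9 and 58.1 CPM untreated and at 46.9, 9.95 and 20.9 CPM after doxycycline. Doxycycline replicate 1 lay within the untreated range and the other doxycycline libraries lay below it. Its log2 fold change of -1.02 had an SE of 0.48 and a 95% interval of -2.11 to 0.07 (edgeR adjusted p = 0.241), and it was -1.996 (adjusted p = 0.111) without the libraries with skin transcripts, untreated replicate 2 and doxycycline replicate 1. It was -1.76 (adjusted p = 0.0773) without doxycycline replicate 1 alone and -0.64 (adjusted p = 0.379) without doxycycline replicate 2. Within the doxycycline group the highest Fos library was 4.71 times the lowest. This ratio was exceeded by 1.29% of the 12014 tested genes with a mean of at least 5 CPM over the 6 libraries.

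Fosb varied most among the members. It was at 23.6, 10.9 and 17.4 CPM untreated and at 50.2, 3.02 and 12.7 CPM after doxycycline. Doxycycline replicate 1 held the highest value of all 6 libraries and doxycycline replicate 2 the lowest. The log2 fold change of 0.34 had a 95% interval from -1.44 to 2.12 (SE 0.78, edgeR adjusted p = 0.836). Leaving out doxycycline replicate 1 turned the direction to -1.13 (adjusted p = 0.339), and leaving out untreated replicate 2 with it gave -1.40 (adjusted p = 0.359). The 16.6-fold range among the doxycycline libraries was exceeded by 6 genes of the 12014. Genes removed by the filter on low counts, or at 0 in a doxycycline library, could not be among the 6. Tchh and Dsp, 2 of the 6, are in the skin list, which was drawn up after they were seen to stand apart. Fosb and the skin genes were both highest in doxycycline replicate 1, but in untreated replicate 2, where the skin genes summed to 256.9 CPM, Fosb was the lowest of its group. The part of the skin transcripts in the Fosb values was not tested.

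Counts of Fos were 2.70, 3.20 and 3.34 times those of Fosb in the untreated libraries and 0.935, 3.30 and 1.64 times in the doxycycline libraries. Doxycycline replicate 1 was the only library of the 6 with more Fosb than Fos counts.

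Of the JUN family, Junb fell. JUNB is a weaker activator than JUN at many sites and can hold JUN back. Junb was at 123.4, 110.5 and 132.0 CPM untreated and at 83.5, 85.5 and 87.97 CPM after doxycycline. The groups did not overlap, and the doxycycline libraries were nearly level, the highest being 1.05 times the lowest, while 96.3% of those 12014 genes had a larger ratio. Means went from 122.0 ± 10.8 to 85.7 ± 2.23 CPM (SD, n = 3), a log2 fold change of -0.51 (SE 0.09, interval -0.71 to -0.30, edgeR adjusted p = 0.0233). Dropping any single library other than doxycycline replicate 2 ended the call, at adjusted p of 0.0502 to 0.138 and log2 fold changes of -0.59 to -0.45, and dropping both libraries with skin transcripts gave -0.57 (adjusted p = 0.0984). With offsets for GC content and exon length the change was -0.28 (adjusted p = 0.109).

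Jun did not pass the threshold. Its protein, c-JUN, is the main target of the JUN N-terminal kinases and can switch on its own gene. Jun was at 95.4, 70.3 and 101.8 CPM untreated and at 70.1, 43.99 and 40.1 CPM after doxycycline. The highest doxycycline library and the lowest untreated library, which are the pair with skin transcripts, lay side by side without crossing. This gave a log2 fold change of -0.80 with an SE of 0.22 (interval -1.31 to -0.29, edgeR adjusted p = 0.0795). Without doxycycline replicate 1 Jun was called, at -1.09 (adjusted p = 0.0314), and without both libraries it was at -1.24 (adjusted p = 0.0587).

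Jund encodes the JUN protein that most tissues hold at a steady level and that is less tied to acute stimuli. It was at 53.0, 46.8 and 63.4 CPM untreated and at 47.4, 28.3 and 38.2 CPM after doxycycline. Only doxycycline replicate 1 reached the untreated range. Jund had a log2 fold change of -0.52 with an SE of 0.20 (interval -0.97 to -0.07, edgeR adjusted p = 0.156). It was -0.18 with offsets for GC content and length and -0.82 (adjusted p = 0.135) without the libraries with skin transcripts.

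The BATF genes stood at low levels and overlapped between the groups. Batf, with 50 to 147 counts per library, was at 3.78, 4.71 and 4.92 CPM untreated and at 6.87, 10.1 and 4.39 CPM after doxycycline. On the log2 scale Batf differed by 0.67, with an SE of 0.35 and an interval of -0.13 to 1.46 (edgeR adjusted p = 0.290), and 0.32 (adjusted p = 0.534) without doxycycline replicate 2. Batf3, which type 1 conventional dendritic cells need for their development, was at 6.50, 6.85 and 8.02 CPM untreated and at 3.85, 8.17 and 5.39 CPM after doxycycline. Its log2 fold change was -0.29 (SE 0.32, edgeR adjusted p = 0.634). Markers of those dendritic cells, Xcr1 and Clec9a, were at 2.46 and 8.37 CPM untreated and at 3.62 and 14.4 CPM after doxycycline, and neither was called (edgeR adjusted p = 0.318 and 0.201). Of the 14 genes of the dendritic cell and MHC class II list, 5 had negative log2 fold changes. Among these were Irf8, at 126.7 and 100.1 CPM, and Flt3, at 6.64 and 3.31 CPM (edgeR adjusted p = 0.0684 and 0.114). The list thus gave no single direction for these cells.

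Maff was at 62.4, 50.9 and 71.7 CPM untreated and at 48.2, 41.0 and 49.6 CPM after doxycycline. All 3 doxycycline libraries lay below all 3 untreated ones. Maff had a log2 fold change of -0.41 (SE 0.15, interval -0.75 to -0.08) and did not pass the threshold (edgeR adjusted p = 0.135).

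**Figure D2:**
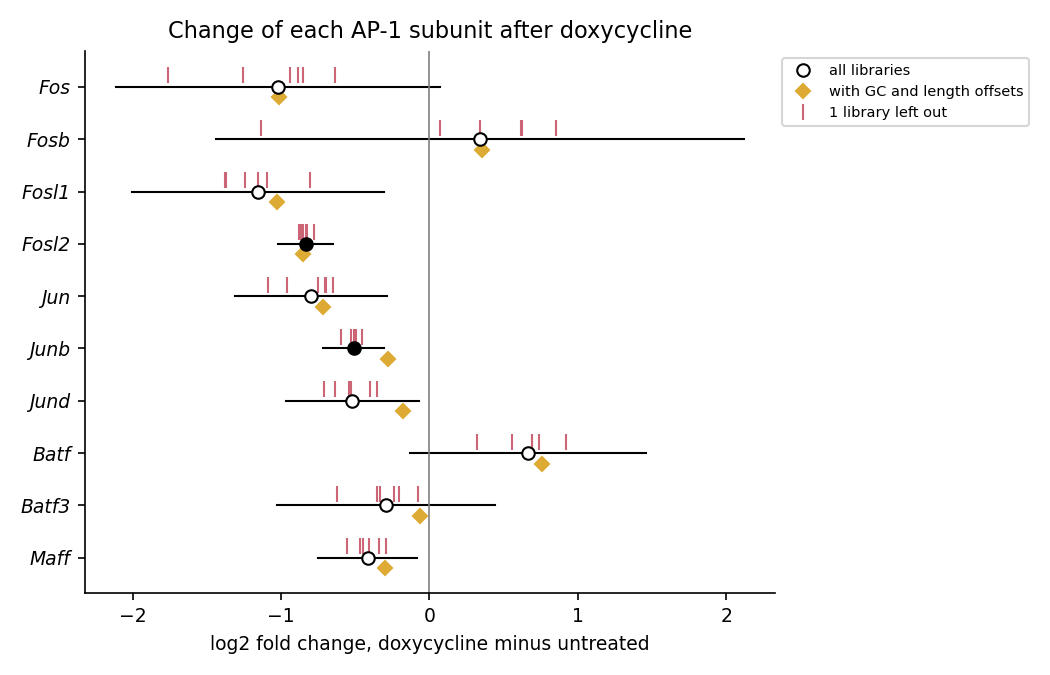
Log2 fold change of each member, doxycycline minus untreated, with its 95% interval (line), the value with GC and length offsets (diamond) and the values with 1 library left out (ticks); filled circles passed the threshold. Fosl2 stays between -0.88 and -0.78, and the tick for Fosb at -1.13 is the fit without doxycycline replicate 1.

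Of the whole group, 2 of the 10 members were called lower, Fosl2 and Junb, against 2.18% of all genes tested. None was called higher by edgeR, DESeq2 or limma-voom, against 2.84% of all genes in edgeR. At an unadjusted edgeR p below 0.05, 6 members were lower and 0 higher, against 10.8% lower and 13.1% higher of all genes. The 2 groups did not overlap for 5 members, all lower (Fosl1, Fosl2, Jun, Junb and Maff), against 14.4% of genes lower and 15.2% higher without overlap. The median log2 fold change was -0.51 over the members and 0.0077 over all genes tested, and 8 of the 10 values were negative, against 48.9% over all genes. The members' median was -0.29 with offsets for GC content and length, when that of all genes was -0.046, and -0.83 without the libraries with skin transcripts, when that of all genes was 0.0044. In that last fit 7 members were lower at an unadjusted edgeR p below 0.05, against 8.83% of genes, 0 were higher, and 0 passed the adjusted threshold. That fit was chosen after the values were seen. It leaves out the lowest untreated and the highest doxycycline library of Fos, Fosb, Fosl1, Jun and Jund. Larger falls of these genes follow from that choice, so its count is no further support. Markers of neutrophils, at 58.3 to 116 CPM after doxycycline against 155 to 230 CPM, of skeletal muscle, at 390.3 to 2690 CPM against 69.7 to 202.3 CPM, and of macrophages, at 593 to 852 CPM against 468 to 572 CPM, moved with the groups, and their part in the members' differences was not tested.

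The members differed in how well their replicates matched each other. Among genes of like level, within a factor of 2, the SD of log2 CPM of Fos was larger than that of 98.9% of genes untreated and of 99.1% after doxycycline, and that of Fosb larger than 97.6% and 99.8%. Fosl2 was in the lower range at 29.0% and 37.7%. Jun was at 97.7% and 92.1%, Jund at 90.1% and 84.0%, and Junb went from 81.4% untreated to 4.13% after doxycycline. Maff was at 94.5% and 40.7%, and Fosl1 went from 33.3% to 92.1%. Batf at 33.4% and 69.5% and Batf3 at 26.5% and 64.8% were compared with genes of equally low level. The SE of the log2 fold change was 0.48 for Fos and 0.78 for Fosb, against 0.08 for Fosl2 and 0.09 for Junb.

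The members were not alike in gene structure, and their GC content ran from 51.9% to 67.1%. Jun, Junb and Jund each have 1 exon, as do 2.75% of the 14109 coding genes tested. The members' exons had a median GC content of 57.1%, against 50.3% over those coding genes, and 98.5% of genes had a lower GC content than Junb (62.6%), 98.7% a lower one than Batf3 (62.8%) and 99.8% a lower one than Jund (67.1%). GC content moved with the group difference across all genes, with a median log2 fold change of 0.14 in the 3676 genes of lowest GC and -0.14 in the 3676 of highest GC. Fosl2 at 53.1% and Fos at 51.9% GC lay near the middle, and their changes with offsets, -0.85 and -1.01, were close to those without. The 3′ UTR of 8 of the 10 members holds ATTTA, the core of AU-rich decay elements, against 68.7% of coding genes. Fosl2 has 8 copies, Fos, Jun and Maff 4 each, Junb 2, Fosb, Fosl1 and Jund 1 each, and Batf and Batf3 none. These copies were not scaled to the length of the 3′ UTR, which ran from 310 bases for Batf3 to 4653 for Fosl2.

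Counts per base of exon were highest for Junb among the members, at 0.775 in the untreated libraries, then 0.477 for Jund, 0.407 for Jun, 0.347 for Maff, 0.320 for Fos and 0.273 for Fosl2. Genes with many counts per base showed less of the difference in depth between the deepest untreated library, replicate 2, and the shallowest, replicate 1. Replicate 2 holds skin transcripts, and no other pair was compared. It had 1.23 times the counts of replicate 1. Genes with 0.05 to 0.1 counts per base had a median ratio of 1.23, and the 1169 genes with 0.5 to 1 had 1.14. Junb lies in the second of these ranges. Whether its fold change is smaller for that was not tested.

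The make-up of each family within a library does not depend on library scaling. Of the CPM per kb of the FOS family, Fos took 46.3%, 33.9% and 44.6% in the untreated libraries and 45.5%, 26.4% and 32.8% after doxycycline. Fosl2 took 30.5%, 43.5% and 34.0% untreated and 24.4%, 59.5% and 40.7% after doxycycline. In doxycycline replicate 2 more than any other library the family was Fosl2, and in doxycycline replicate 1 Fosb reached 18.3% against 3.01% to 7.52% in the other 5. The mean share of Fos differed by -6.73 percentage points and that of Fosl2 by 5.51 points (exact permutation test, two-sided, p = 0.3 and 0.7). In the JUN family Junb took 46.8% ± 1.98 (SD, n = 3) untreated and 49.5% ± 6.74 after doxycycline, a difference of 2.64 points (exact permutation test, p = 0.6). Over the 7 shares of both families the smallest p was 0.3, the adjusted p was 0.8 for each, and 3 libraries against 3 cannot give less than 0.1. None of the 7 shares passed the test. Without the libraries with skin transcripts the differences were -15.9 points for Fos, 17.8 points for Fosl2 and 7.5 points for Junb. Without doxycycline replicate 2 that of Fosl2 turned to -3.47 points, with -2.48 points for Fos and 0.025 points for Junb, so the size of each difference, and the direction for Fosl2, rest on single libraries.

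**Figure D3:**
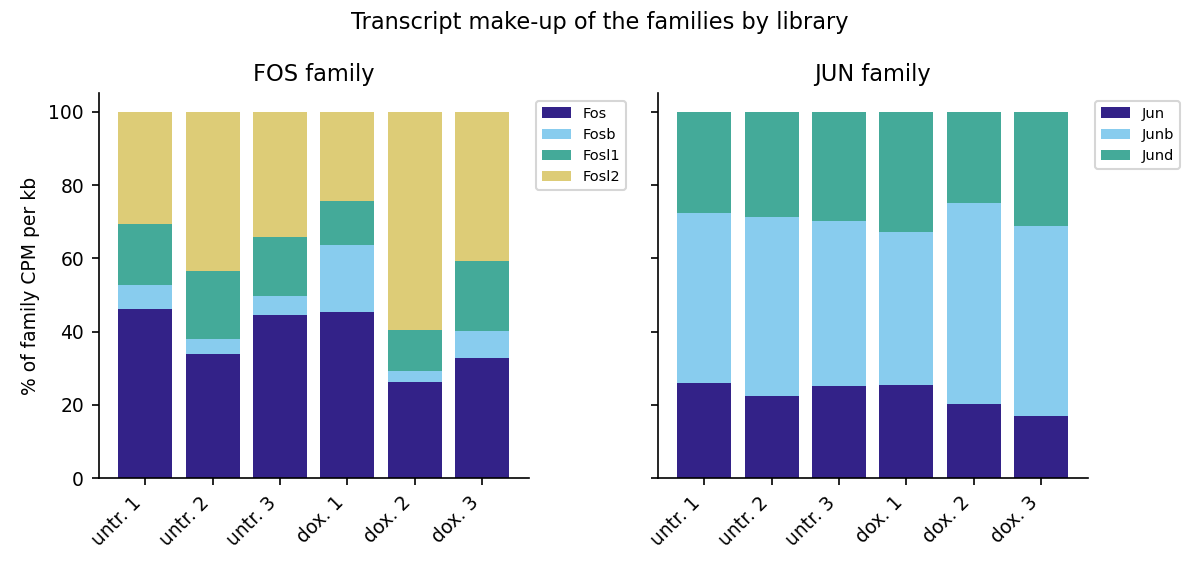
Share of each gene in the CPM per kb of its family, 1 stacked bar per library, from 0 to 100%. The JUN family has a like make-up in all 6 libraries, with Junb at 41.9% to 54.7%, and the FOS family varies more, with Fosl2 between 24.4% and 59.5%.

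Summed over the genes, the FOS family was at 58.5, 43.8 and 55.4 CPM per kb untreated and at 43.9, 16.05 and 27.1 CPM per kb after doxycycline. The groups overlapped narrowly, since doxycycline replicate 1 at 43.87 lay just above untreated replicate 2 at 43.81, and these are the libraries with skin transcripts. The JUN family was at 115.3, 98.1 and 127.3 CPM per kb untreated and at 86.7, 68.0 and 73.7 CPM per kb after doxycycline, without overlap. JUN genes made up 68.4% ± 1.79 of both families untreated and 73.5% ± 7.25 after doxycycline (SD, n = 3).

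Genes around AP-1 were taken from lists of its partners, its inputs and its known targets. Of 16 related bZIP genes, 1 was called higher and 0 lower, against 2.84% higher and 2.18% lower of all genes tested. The median over the list was -0.062 on the log2 scale. The gene called was Maf, a large MAF protein of macrophages and other cells, at 23.8, 18.4 and 16.5 CPM untreated and 40.5, 30.1 and 49.9 CPM after doxycycline (log2 fold change 1.04, SE 0.22, edgeR adjusted p = 0.0366). Maf was not called without any 1 library other than doxycycline replicate 2, at adjusted p up to 0.182. Macrophage markers summed to 593 to 852 CPM after doxycycline against 468 to 572 CPM, with 3 of 14 called higher, and their part in the Maf difference was not tested. Atf3, a stress-induced partner of JUN, was at 54.9, 42.0 and 57.4 CPM untreated and 32.8, 12.5 and 18.1 CPM after doxycycline, and just missed the threshold (log2 fold change -1.29, SE 0.31, edgeR adjusted p = 0.0540). Its groups did not overlap. Bach2, a repressor that pairs with small MAF proteins, was at 0.52 (adjusted p = 0.0663), and Mafg, a small MAF protein, was at -0.36 (adjusted p = 0.114).

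Of 19 upstream MAP kinase genes, 2 were called lower and 0 higher, against 2.18% and 2.84% of all genes tested, with a median of -0.047. Map2k2, which encodes the ERK kinase MEK2, was at 88.2, 90.3 and 84.7 CPM untreated and 62.15, 59.7 and 61.5 CPM after doxycycline (log2 fold change -0.52, SE 0.08, edgeR adjusted p = 0.0185). Map3k1, which encodes the kinase MEKK1 upstream of the JUN N-terminal kinases, was at 214.8, 202.2 and 202.5 CPM untreated and 142.6, 143.9 and 171.5 CPM after doxycycline (-0.44, SE 0.09, adjusted p = 0.0329). The groups of both genes were apart. The call of Map2k2 was lost with GC and length offsets (-0.34, adjusted p = 0.0839). Leaving out any 1 untreated library ended both calls, as did the loss of doxycycline replicate 3 for Map2k2 (adjusted p = 0.0506) and of doxycycline replicate 1 for Map3k1 (adjusted p = 0.0696), and the replicate number as a block (adjusted p = 0.0532 and 0.0568). Mapk8, the gene of JNK1, was at 0.32 (adjusted p = 0.0870), and Map2k3, the gene of a p38 kinase kinase, at -0.37 (adjusted p = 0.0692).

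Of 10 activators that bind the promoters of immediate early genes, 1 was called higher and 0 lower, with a median of 0.11. Of all genes tested, 2.84% were called higher and 2.18% lower. Mef2c, a factor of muscle, endothelium and myeloid cells, was at 20.1, 18.5 and 17.0 CPM untreated and 49.3, 42.2 and 38.7 CPM after doxycycline (log2 fold change 1.23, SE 0.15, edgeR adjusted p = 0.00803). Skeletal muscle markers were higher in the same libraries, at a summed 390.3 to 2690 CPM against 69.7 to 202.3 CPM, and their part in the Mef2c difference was not tested. The call of Mef2c was lost without any 1 untreated library, at adjusted p up to 0.0670. Srf, the serum response factor, was at -0.30 (adjusted p = 0.136) and Stat3, which cytokines activate, at -0.25 (adjusted p = 0.0843). Mkl2, a cofactor of SRF, was at 0.33 and was not called either.

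Of 14 genes that degrade or repress AP-1 transcripts, proteins or kinases, 0 were called by edgeR, against 2.18% lower and 2.84% higher of all genes. At an unadjusted edgeR p below 0.05, 3 were lower and 0 higher, against 10.8% and 13.1% of all genes. The median over the list was 0.060. Zfp36, which binds AU-rich elements and speeds decay, was at 55.6, 45.7 and 60.7 CPM untreated and 48.0, 24.7 and 35.1 CPM after doxycycline (-0.59, adjusted p = 0.163). Dusp1, a phosphatase of MAP kinases, was at -0.51 (adjusted p = 0.155), Zfp36l2 at -0.32 (adjusted p = 0.204) and Itch, a ubiquitin ligase of JUN proteins, at 0.14 (adjusted p = 0.344).

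**Figure D4:**
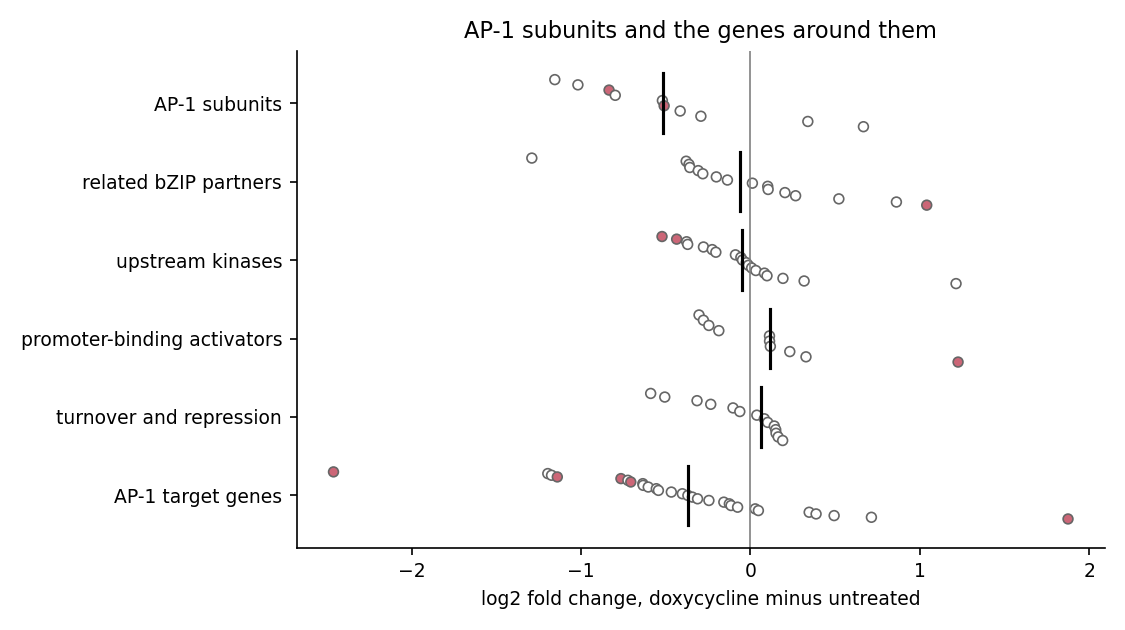
Log2 fold change, doxycycline minus untreated, of every tested gene of the members and of the 5 lists around them, 1 point per gene, filled where the threshold was passed, with a bar at each list's median. The medians are -0.51 for the members, -0.37 for the target genes and between -0.062 and 0.11 for the other lists.

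Among 29 tested genes known as AP-1 targets, 4 were called lower and 1 higher, 22 had negative values and the median was -0.37. Over all genes tested, 2.18% were called lower, 2.84% were called higher and 48.9% had negative values. Il11, which encodes an IL-6-like cytokine of stromal and tumour cells, had the smallest p. It was at 30.6, 34.7 and 34.1 CPM untreated and 6.20, 5.08 and 6.77 CPM after doxycycline (log2 fold change -2.46, SE 0.19, edgeR adjusted p = 0.00174). Each group was tight, and of the alternatives only the fit without the libraries with skin transcripts failed to call it (-2.46, adjusted p = 0.0587). Cxcl1, a neutrophil attractant, was at 37.2, 35.4 and 44.4 CPM untreated and 17.4, 15.9 and 19.8 CPM after doxycycline (-1.14, SE 0.16, adjusted p = 0.0132). Summed neutrophil markers were lower in the same libraries, at 58.3 to 116 CPM against 155 to 230 CPM, and whether the changes are linked was not tested. Vegfa, the gene of a growth factor for blood vessels, was at 226.9, 207.6 and 222.4 CPM untreated and 151.9, 97.3 and 153.6 CPM after doxycycline (-0.71, SE 0.16, adjusted p = 0.0446). Ccl2, a monocyte attractant named after its value was seen, since it is the remaining lower call, was at 34.4, 33.4 and 36.9 CPM untreated and 17.3, 19.0 and 25.3 CPM after doxycycline (-0.76, SE 0.17, adjusted p = 0.0454). Fgf7, a growth factor of fibroblasts for epithelium, rose from 1.24 ± 0.127 to 4.59 ± 0.487 CPM (SD, n = 3; log2 fold change 1.87, SE 0.31, edgeR adjusted p = 0.0195), beside fibroblast and mural markers at 1763 to 2030 CPM against 1341 to 1390 CPM. The calls of Cxcl1, Vegfa, Ccl2 and Fgf7 were lost without any 1 untreated library, those of Vegfa and Ccl2 also without doxycycline replicate 1, and that of Vegfa also without doxycycline replicate 3. The fits without 1 untreated library called only 11 to 27 of all genes higher and 12 to 25 lower. Krt8 and Krt18, which are also in the liver marker list, were not called (0.49 and -0.16, adjusted p = 0.540 and 0.701).

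The genes whose profile over the 6 libraries was most like that of a member were found among the 11457 of those 12014 genes that are not predicted genes, clones or pseudogenes, by the root mean square difference of log2 CPM after each gene was centred on its own mean. Closest to Fosl2 were Aldh1l2, a mitochondrial folate enzyme, at 0.0301, Cyb5r1 at 0.0465 and the DNA helicase gene Recql4 at 0.0545, where the median gene was at 0.445. Each of the 3 was called lower, with log2 fold changes of -0.87, -0.90 and -0.85 (edgeR adjusted p = 0.00413, 0.00507 and 0.00751). Closest to Junb were Cd3eap, a subunit of RNA polymerase I, at 0.0421, the ribosome assembly gene Bop1 at 0.0452 and Tbl2 at 0.0469, where the median gene was at 0.305. These genes were called lower, at -0.53, -0.49 and -0.52 (edgeR adjusted p = 0.0268, 0.0212 and 0.0249). Closest to Fos were Mfsd2a, a lipid transporter, at 0.198, Gpnmb at 0.209 and the transcription factor gene Klf5 at 0.286, where the median gene was at 0.944, and none of them was called. Mfsd2a was at 19.7, 13.1 and 20.6 CPM untreated and 11.8, 3.57 and 7.33 CPM after doxycycline, with the same order of libraries within each group as Fos apart from the order of untreated replicates 1 and 3. The 6 libraries are the same for every gene compared, and the likeness is a description. Genes chosen for a profile close to that of a member have a like fold change by that choice. Their calls are therefore no separate result.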

How the data were processed

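The deposited table holds raw read counts per gene symbol, 1 column per library. Per the submitters' processing notes the tools were TopHat2 2.0.8, TopHat and HTSeq and the build mm9; the handling of strand, duplicates and multiple mapping was not given in the sources used here. Libraries were made from frozen tissue after removal of ribosomal RNA, per the labels' protocols. The 90 entries without a gene name, 0.0361% to 0.0402% of counts, were left out. Genes were kept by filterByExpr, scaled by TMM (factors 0.985 to 1.02) and tested with edgeR 4.0.16 (R 4.3.3) by its robust quasi-likelihood test, two-sided, over all 6 libraries without covariates, with Benjamini-Hochberg adjustment over all 14809 genes and a threshold of 0.05. CPM use TMM-scaled totals. SE and 95% intervals come from that fit. The deposited counts were also tested with DESeq2 1.42.0 and limma-voom (limma 3.58.1), and the edgeR fit was tested on simulated data. Exon lengths, GC content and 3′ UTRs came from GENCODE annotation of GRCm38 and promoters from RefSeq GRCm38.p6, a later build than the authors', used by symbol (21463 of 21671 matched). Shares were compared by exact permutation tests. Pairwise chi-square over degrees of freedom between libraries of 1 group was 5.17 to 29.8, so no library repeats another. Named genes are St18, the 10 members, up to 4 genes of each list with the smallest p, and the 3 nearest profiles of Fos and of each member called. Replicate numbers were not found to pair libraries. The members and lists were chosen with earlier results of these data known.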

Additional observations from a re-analysis of the deposited data

How the results depend on the processing

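Over 41 named genes and 18 alternative fits, 628 of 738 log2 fold changes kept direction and side of the threshold, 82 lost the call, 21 gained it and 7 changed sign. The sign changes were those of Fosb, at -0.34 with the replicate block, -0.27 with the block and GC and length offsets, -0.47 with limma-voom, and -1.40 without both libraries with skin transcripts, an alternative chosen after seeing the data, and with 1 library left out (-1.13 without doxycycline replicate 1 to 0.85 without doxycycline replicate 2), and those of Itch, at -0.073 with the offsets and -0.081 with block and offsets; neither gene was called. The count of members called lower, 2, was 1 with GC and length offsets (Fosl2), 4 with DESeq2 (Fosl1, Fosl2, Jun and Junb), 0 without both skin libraries, and 1 to 3 with 1 library left out. Without doxycycline replicate 2 these were Fosl1, Fosl2 and Junb, and without doxycycline replicate 1 Fosl2 and Jun. Genes of the lists called higher, 3, ranged from 0 to 7 and those called lower, 6, from 1 to 13 with 1 library left out; 12 were lower with DESeq2, and 0 of either without both skin libraries. Of all genes, 421 were higher and 323 lower, against 877 and 790 with DESeq2, 251 higher with limma-voom, 215 and 179 with the block, and 0 and 0 without both skin libraries (edgeR, 1294 higher and 1316 lower at an unadjusted p below 0.05). With 1 library left out, 11 to 1244 were higher and 12 to 866 lower, the most without doxycycline replicate 2. With 1 untreated library left out, only 11 to 27 were higher and 12 to 25 lower. The differences in family share moved by less than the larger SD of the 2 groups but by much of it: with 1 library left out, from -12.0 to -2.48 points for Fos, -3.47 to 14.1 for Fosl2 and 0.025 to 6.44 for Junb. Deviations of libraries with the same number correlated at -0.075 to 0.016, and 0 of 6 libraries correlated best with their own number. Fos was called with the block and offsets (-1.23, adjusted p = 0.0452). For the changes between fits the cause was not tested, save that leaving out libraries leaves fewer. Counts per library were as low as 44 for Fosb, 46 for Batf3 and 50 for Batf.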

Other observations

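Other immediate early genes, chosen after their values were seen, were read beside Fos and Fosb. Egr1, a zinc finger factor induced by the same signals, was at 85.4, 92.9 and 91.4 CPM untreated and at 98.5, 39.6 and 59.3 CPM after doxycycline. Nr4a1, an orphan nuclear receptor, was at 16.2, 12.6 and 14.4 CPM untreated and at 26.5, 7.28 and 11.9 CPM after doxycycline, and its relative Nr4a2 was at 13.1, 12.2 and 9.91 CPM and at 25.7, 6.38 and 11.0 CPM. Doxycycline replicate 1 was the highest and replicate 2 the lowest of the treated libraries in 6 of the 10 such genes read, as in Fos and Fosb. The 6 include Nr4a3, which had 10, 4 and 5 counts in doxycycline replicates 1, 2 and 3 and did not pass the filter on low counts. The share of all genes with this order was not counted, so nothing is concluded from it. Egr2, at 11.5, 14.2 and 10.3 CPM, and Btg2, at 39.5, 60.2 and 56.1 CPM, were instead highest in replicate 2. Arc, a gene best known from neurons, had another order, at 11.1, 69.5 and 11.3 CPM after doxycycline against 23.4, 28.1 and 46.4 CPM untreated. Ier2 was at 77.6, 79.9 and 86.4 CPM untreated and at 58.4, 69.2 and 62.0 CPM after doxycycline, without overlap (edgeR adjusted p = 0.0780). Of these other immediate early genes, Nr4a3 was not tested, and none of the other 7 named here passed the threshold.

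Of the 12014 genes ranked, those with a wider range than Fosb among the doxycycline libraries were Tchh, Dsp, Stac2, Fat2, Ttpa and Krt19. Genes removed by the filter on low counts, or at 0 in a doxycycline library, could not be among these. Krt14, a skin gene that is not among them, was at 23.8, 0.137 and 0.313 CPM in doxycycline replicates 1, 2 and 3. Dsp, a desmosome gene, was at 70.3, 0.755 and 2.38 CPM in doxycycline replicates 1, 2 and 3, and at 0.529, 59.4 and 0.674 CPM in the untreated replicates. Ttpa, a vitamin E carrier of hepatocytes, was at 5.53, 48.5 and 2.26 CPM after doxycycline. Krt19, a biliary keratin, was at 15.2, 1.37 and 29.0 CPM.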
